A study of Homo sapiens with 9 samples.

Results

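YAP1, WWTR1 and the TEAD and VGLL genes encode the proteins through which the Hippo pathway acts on transcription. The genes were chosen by symbol: the coactivators YAP1 and WWTR1, the DNA-binding factors TEAD1, TEAD2, TEAD3 and TEAD4, and the VGLL cofactors VGLL1, VGLL3 and VGLL4. Of these 9 genes, 8 had a line in the deposited table of 19930 genes with values, and 7 were among the 12884 genes tested. VGLL1 was not analysed here, and VGLL3 was listed at 0 to 0.02 FPKM and was too low to test.

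In the Hippo pathway, the kinases MST1 and MST2 activate LATS1 and LATS2, which phosphorylate YAP1 and WWTR1 and so hold these coactivators in the cytoplasm. YAP1 and WWTR1 have no DNA-binding domain of their own and reach their target genes mainly through TEAD factors. VGLL proteins bind the same face of TEAD, and VGLL4 competes there with YAP1. The protein encoded by WWTR1 is known as TAZ, a name it shares with the symbol of an unrelated gene, tafazzin, whose line was not used. The study was concerned with LINC00673, miR-515-5p, the kinase MARK4 and Hippo signalling. After knockdown of LINC00673 in breast cancer cells that included MDA-MB-453, it reported lower YAP and TAZ, as mRNA by qRT-PCR and as protein by western blot. The comparisons below address whether the RNAs of the Hippo effectors differed after knockdown of LINC00673 in the sequenced libraries.

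The libraries are labelled as MDA-MB-453, an established human breast cancer cell line, and were transfected by lipofection and sequenced on the BGISEQ-500 platform. The control group (X453_NC) received the control siRNA si-NC, and the knockdown groups (X453_1 and X453_2) received siRNAs against the long noncoding RNA LINC00673, here called si-LINC00673-1 and si-LINC00673-2 by the number in the label. Each of the 3 groups held 3 libraries, named without a suffix, r1 and r2, and values of single libraries are given below in that order. The labels do not say whether these came from separate cultures, so the P values measure the spread between libraries, which may be technical. The labels give a harvest at 48 h after transfection for qRT-PCR and no time of its own for the sequencing. LINC00673 itself was not analysed here, so the knockdown was not checked.

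Depth, estimated from the steps between low values, was 24.0 to 27.9 M fragments per library, at which a transcript of 2 kb at 5 FPKM is covered by about 240 to 279 fragments. Across genes, log2(FPKM + 1) correlated with r of 0.994 to 0.996 within groups. Markers fixed for the labelled cell line were only partly present. MDA-MB-453 is known as a line with luminal, apocrine features, but FOXA1 was listed at 0 to 0.04 FPKM and GATA3 reached at most 0.88. The luminal keratins KRT8, KRT18 and KRT19 lay between 1044 and 3773 FPKM, and the mesenchymal marker VIM lay between 366 and 441. The 9 luminal or apocrine markers with a line (of 10 in the list) summed to 6945 to 7586 FPKM in the control libraries. The sum was 5772 to 6405 with si-LINC00673-1 and 5909 to 6582 with si-LINC00673-2, almost all of it KRT8, KRT18 and KRT19. Of the 5 markers that could be tested, 2 and 3 were called lower with the respective siRNA and 0 higher. After a correction for GC content, KRT18, FGFR4 and ERBB2 were no longer called. GATA3, too low to test, lay above si-NC (0.41 to 0.45 FPKM) with si-LINC00673-1 (0.58 to 0.88) and si-LINC00673-2 (0.54 to 0.71). SPDEF, also too low, averaged 0.73 with si-NC and 0.94 and 1.02 with the siRNAs, with overlap. The 6 mesenchymal markers summed to 376 to 401, 445 to 454 and 437 to 454 FPKM in the same order, and of the 4 tested, 1 (COL1A1) was called higher with both siRNAs. The 6 basal markers summed to 7.30 to 9.89 FPKM with the siRNAs and to 10.6 to 12.5 with si-NC, 3 endothelial markers did not exceed a sum of 1.01, and ESR1 did not exceed 0.02. Of 3 leukocyte markers, CD68 lay between 32.8 and 59.3 FPKM while PTPRC did not exceed 0.07. The part of these shifts in the results below was not tested.

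The RNAs below are shown so that short matches to their seeds anywhere in the transcripts of the Hippo effectors can be counted. They are the antisense strands of the study's siRNAs and, from RefSeq, the mature miR-515-5p named in the study's title, written 5′ to 3′ with the seed (bases 2 to 8) in capitals.
si-LINC00673-1 antisense: aGAAACCUcugauuccacctt
si-LINC00673-2 antisense: uUAUUAUUugagacagggucu
si-NC antisense: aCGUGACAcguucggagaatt
hsa-miR-515-5p: uUCUCCAAaagaaagcacuuucug
The 4 RNAs shared no seed. In the longest GENCODE release 29 transcript of each gene, bases complementary to the si-LINC00673-1 seed occurred 1 time in YAP1, 1 time in TEAD1 and 2 times in TEAD2. For the si-LINC00673-2 seed, WWTR1, TEAD1 and VGLL4 each held 1 such match, VGLL1 held 2 and VGLL3 held 3. The miR-515-5p seed had 1 match in TEAD1 and 2 in TEAD2, and none in YAP1, WWTR1, TEAD3, TEAD4 or VGLL4. The si-NC seed had 1 match in TEAD1 and 1 in VGLL3. TEAD3 and TEAD4 held no match to any of the 4 seeds. Among 11380 tested genes with a transcript, 21.0% held a match to the si-LINC00673-1 seed, 25.8% to that of si-LINC00673-2, 7.01% to that of si-NC and 38.4% to that of miR-515-5p. The longest run of bases of any member transcript complementary to an siRNA antisense strand was 11, in TEAD1 and VGLL3 with si-LINC00673-2. A seed match is a match of letters, and no effect was inferred from it.

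WWTR1, the less abundant coactivator, was about 2-fold higher with both siRNAs, while YAP1 was lower with si-LINC00673-2 and overlapped the control libraries with si-LINC00673-1. TEAD3 and TEAD2 were lower with both siRNAs, TEAD2 by less than 1.3-fold with si-LINC00673-2. TEAD1 and VGLL4 were higher with both siRNAs, each by less than 1.3-fold. As these are bulk libraries, fewer cells expressing a gene and less RNA per cell cannot be told apart. Tests were made with limma on log2(FPKM + 1) over the 12884 genes that averaged 1 FPKM or more. A gene was called at a fold change of FPKM + 1 of at least 1.3 (0.38 on the log2 scale) and an unadjusted P of at most 0.05. A gene at low level can therefore differ by more than 1.3-fold in FPKM and not be called. Adjusted P values are Benjamini-Hochberg adjusted over all tested genes. With si-LINC00673-1, 3 of 7 members were called (1 higher, 2 lower), against 26.7% of all tested genes (11.1% called higher and 15.6% lower). With si-LINC00673-2, 2 of 7 were called (1 higher, 1 lower), against 34.0% (11.0% and 23.1%). Differences smaller than 1.3-fold are given by their adjusted P, which was at most 0.05 for 6 of 7 members with si-LINC00673-1 and for 7 of 7 with si-LINC00673-2, where 64.4% and 70.8% of all tested genes had such values. The libraries of the siRNA group lay apart from those of si-NC in the same 6 and 7 genes, which was the case for 70.0% and 73.0% of all tested genes. Both comparisons share the si-NC libraries and are given side by side. With 3 libraries against 3, the P of an exact permutation test (two-sided) is at least 0.1, and it was 0.1 wherever the groups did not overlap.

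**Figure D1:**
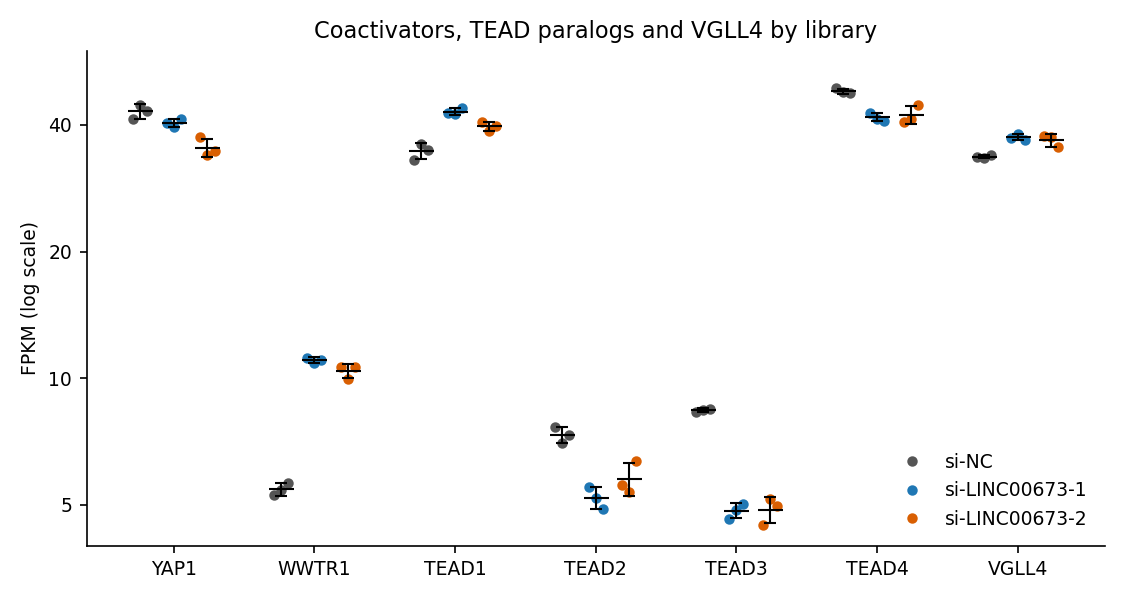
FPKM on a log axis for the 7 tested genes in each of the 9 libraries (points, coloured by group), with the group mean and SD (bars). WWTR1 lies at 5.27 to 5.63 with si-NC and at 9.97 to 11.2 with the siRNAs, and TEAD3 moves the other way, from at least 8.31 to at most 5.15.

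WWTR1 (NCBI Gene ID 25937) lies on chromosome 3 from 149235022 to 149421060 on the minus strand of GRCh37, the build named in the submitters' processing notes. It had 5.27, 5.43 and 5.63 FPKM in the si-NC libraries, 11.18, 10.84 and 11.07 with si-LINC00673-1 and 10.62, 9.97 and 10.64 with si-LINC00673-2. Each of the 6 siRNA libraries thus lay above each si-NC library. This direction is opposite to that of the TAZ mRNA in the study's qRT-PCR, and the reason was not tested. The means were 5.44 ± 0.180 (SD, n = 3), 11.03 ± 0.173 (SD, n = 3) and 10.4 ± 0.381 (SD, n = 3), a ratio to si-NC of 2.03 and 1.91. The log2 difference was 0.90 with si-LINC00673-1 (standard error 0.041, limma adjusted P = 1.0e-07) and 0.82 with si-LINC00673-2 (standard error 0.041, limma adjusted P = 1.0e-07). Of all tested genes, 4.07% differed by more with si-LINC00673-1 and 8.13% with si-LINC00673-2. The siRNAs did not differ from each other past the threshold, with a difference of -0.08 (95% interval -0.17 to 0.01, limma adjusted P = 0.15).

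YAP1 (Gene ID 10413), the more abundant coactivator, lies on chromosome 11 from 101981192 to 102104154 on the plus strand. It had 41.26, 44.67 and 43.25 FPKM with si-NC, 40.47, 39.62 and 41.34 with si-LINC00673-1 and 37.34, 33.86 and 34.71 with si-LINC00673-2. The highest si-LINC00673-1 library lay just above the lowest si-NC library, and the si-LINC00673-2 libraries lay below all others. The log2 difference from si-NC was -0.09 with si-LINC00673-1 (95% interval -0.18 to 0.01, limma adjusted P = 0.10) and -0.28 with si-LINC00673-2 (95% interval -0.38 to -0.18, limma adjusted P = 2.3e-04). After a correction for GC content the difference with si-LINC00673-1 was -0.16 (limma adjusted P = 6.5e-04). Neither siRNA gave a difference of 1.3-fold, and YAP1 with si-LINC00673-2 stood at 0.820 of its si-NC mean. With the median of all tested genes at -0.10 for that siRNA, scaling of the libraries to the same median ratio over expressed genes moved this difference by more than 1.5 times, to -0.18. Between the siRNAs YAP1 differed by -0.19 (si-LINC00673-2 minus si-LINC00673-1, limma adjusted P = 0.0057), where the median of all tested genes also differed by -0.08. After scaling of the libraries this difference was -0.09 (limma adjusted P = 0.13).

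The coactivators therefore came closer in level. Within each si-NC library there were 7.83, 8.23 and 7.68 times as many FPKM of YAP1 as of WWTR1, compared with 3.62, 3.65 and 3.73 times with si-LINC00673-1 and 3.52, 3.40 and 3.26 times with si-LINC00673-2. The ratio was lower in all 6 siRNA libraries, and as it is taken within a library it does not depend on that library's scaling. WWTR1 made up 11.2% ± 0.350 of the summed coactivator FPKM in the controls, 21.4% ± 0.268 after si-LINC00673-1 and 22.8% ± 0.660 after si-LINC00673-2 (SD, n = 3 each). The sum itself was 48.5 ± 1.81, 51.5 ± 0.983 and 45.7 ± 2.09 FPKM (SD, n = 3 each). The sum was above each si-NC library in all si-LINC00673-1 libraries, and overlapped si-NC with si-LINC00673-2. It uses FPKM as deposited and was not recomputed with scaled libraries or after a correction for GC content.

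Among the DNA-binding factors, TEAD4 and TEAD1 were the abundant paralogs and TEAD2 and TEAD3 the minor ones. TEAD3 (Gene ID 7005, chromosome 6 from 35441374 to 35464861) showed the largest fall of the 7 genes with both siRNAs. Its values were 8.31, 8.42 and 8.46 FPKM with si-NC, 4.64, 4.87 and 5.03 with si-LINC00673-1 and 4.49, 5.15 and 4.96 with si-LINC00673-2. The siRNA groups lay at 0.577 and 0.580 of the si-NC mean and overlapped each other. The log2 differences were -0.69 (standard error 0.051, limma adjusted P = 2.2e-06) and -0.68 (standard error 0.051, limma adjusted P = 1.5e-06), and the siRNAs differed from each other by 0.0038 (95% interval -0.11 to 0.12).

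TEAD2 (Gene ID 8463, chromosome 19 from 49843779 to 49865714) had 7.65, 7.03 and 7.34 FPKM with si-NC, 5.52, 5.18 and 4.89 with si-LINC00673-1 and 5.57, 5.36 and 6.35 with si-LINC00673-2. All siRNA libraries lay below all si-NC libraries, and the r2 library of si-LINC00673-2 came nearest to them. The log2 difference was -0.43 with si-LINC00673-1 (limma adjusted P = 2.1e-04), which was called, and -0.31 with si-LINC00673-2 (limma adjusted P = 0.0016), which was below 1.3-fold. The difference between the siRNAs was 0.12 (95% interval -0.02 to 0.27, limma adjusted P = 0.14).

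TEAD1 (Gene ID 7003, chromosome 11 from 12695969 to 12966284) was the TEAD that was higher. It had 33.01, 36.07 and 34.89 FPKM with si-NC, 42.57, 42.42 and 43.93 with si-LINC00673-1 and 40.63, 38.66 and 39.72 with si-LINC00673-2. The 3 groups did not overlap, and the order from low to high was si-NC, si-LINC00673-2, si-LINC00673-1. The log2 differences from si-NC were 0.30 (limma adjusted P = 6.7e-05) and 0.19 (limma adjusted P = 0.0012), both below 1.3-fold, and with scaled libraries the second was 0.29. In the table, 6 of the 7 transcripts counted for TEAD1 were predicted by the sequencing center, the longest of 26593 bases, so its level relative to other genes is less certain than its differences between groups.

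TEAD4 (Gene ID 7004, chromosome 12 from 3068478 to 3149842) was the most abundant of the 8 genes with values in the si-NC libraries, at 48.89, 47.75 and 47.62 FPKM. It had 42.73, 41.38 and 40.94 FPKM with si-LINC00673-1 and 40.63, 41.40 and 44.51 with si-LINC00673-2, all below the si-NC libraries. The log2 differences were -0.20 (limma adjusted P = 9.6e-04) and -0.19 (limma adjusted P = 0.0014), but after a correction for GC content they were -0.0011 and 0.07.

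The makeup of the TEAD pool shifted toward TEAD1 while its size changed little. The 4 paralogs summed to 98.5 ± 0.720 FPKM in the controls, 94.7 ± 0.809 after si-LINC00673-1 and 92.5 ± 2.68 after si-LINC00673-2 (SD, n = 3 each). In FPKM as deposited, every siRNA library lay below every si-NC library. The sum depends on library scaling, where the median-ratio divisors were 0.950 to 0.957 for si-LINC00673-2 and 1.02 to 1.04 for si-NC. It was not recomputed with scaled libraries. TEAD1 made up 33.7%, 36.3% and 35.5% of the sum in the si-NC libraries, 44.6%, 45.2% and 46.3% with si-LINC00673-1 and 44.5%, 42.7% and 41.6% with si-LINC00673-2. TEAD4 went from a mean of 48.8% with si-NC to 44.0% and 45.6%, TEAD3 from 8.53% to 5.12% and 5.26%, and TEAD2 from 7.46% to 5.49% and 6.22%. The ratio of TEAD1 to TEAD4 was 0.675, 0.755 and 0.733 with si-NC, 0.996, 1.03 and 1.07 with si-LINC00673-1 and 1.0, 0.934 and 0.892 with si-LINC00673-2. TEAD1 and TEAD4, which were apart in every si-NC library, thus overlapped in both siRNA groups. The sums, shares and ratios use FPKM as deposited and were not recomputed after a correction for GC content. Under that correction TEAD1 differed by 0.23 and 0.24 and TEAD4 by -0.0011 and 0.07. TEAD3 then differed by -0.51 and -0.45 and TEAD2 by -0.30 and -0.12. The shares also rest on the level of TEAD1 relative to the other paralogs, which is less certain because most of its transcripts were predicted.

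VGLL4 (Gene ID 9686, chromosome 3 from 11597541 to 11762242), a cofactor that competes with YAP1 for TEAD, had 33.46, 33.42 and 33.87 FPKM with si-NC. Its values were 37.30, 38.12 and 36.86 with si-LINC00673-1 and 37.69, 37.38 and 35.34 with si-LINC00673-2, each above the si-NC libraries. The log2 differences were 0.15 (limma adjusted P = 0.0022) and 0.13 (limma adjusted P = 0.0053), both below 1.3-fold, and with scaled libraries the second was 0.23. VGLL3 (Gene ID 389136) was listed at 0 in each si-NC library and at no more than 0.02 FPKM in any siRNA library, and VGLL2, a family member outside the chosen genes, at no more than 0.02. VGLL4 was therefore nearly the whole of the VGLL level measured here.

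**Figure D2:**
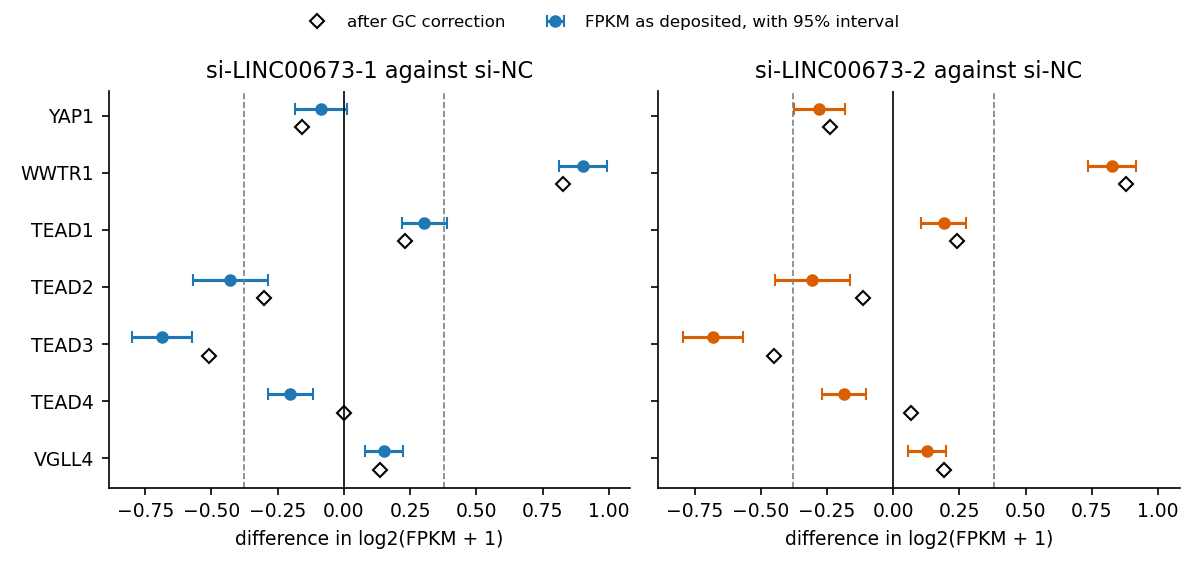
Difference in log2(FPKM + 1) from si-NC for the 7 tested genes with si-LINC00673-1 (left) and si-LINC00673-2 (right), where filled points with bars are the limma estimate and its 95% interval and open diamonds are the estimate after a correction for GC content. Dashed lines mark a fold change of 1.3 (0.38 on the log2 scale). WWTR1 and TEAD3 stay beyond them in both panels, while the diamonds of TEAD4 sit at -0.0011 and 0.07.

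The balance of the classes depended on which class was set against which. Per library, the VGLL sum was 0.342, 0.337 and 0.345 of the TEAD sum with si-NC, 0.391, 0.406 and 0.389 with si-LINC00673-1 and 0.413, 0.413 and 0.370 with si-LINC00673-2. Competitors relative to TEADs were thus higher in all 6 siRNA libraries. Coactivators relative to TEADs stood at 0.475, 0.505 and 0.497 with si-NC and at 0.541, 0.538 and 0.553 with si-LINC00673-1, above all si-NC libraries. With si-LINC00673-2 the same ratio was 0.525, 0.484 and 0.475 and overlapped si-NC. Coactivators relative to VGLLs were 1.39, 1.5 and 1.44 with si-NC, 1.38, 1.32 and 1.42 with si-LINC00673-1 and 1.27, 1.17 and 1.28 with si-LINC00673-2, so that only the second siRNA lay wholly below si-NC. The sums and ratios use FPKM as deposited and were not recomputed after a correction for GC content. Under that correction YAP1 differed by -0.16 and -0.24, WWTR1 by 0.83 and 0.88 and VGLL4 by 0.14 and 0.19. TEAD1 then differed by 0.23 and 0.24, TEAD4 by -0.0011 and 0.07, TEAD3 by -0.51 and -0.45 and TEAD2 by -0.30 and -0.12. Whether coactivators relative to TEADs would still lie above si-NC with si-LINC00673-1 after the correction was not tested. The summed FPKM are weighted by the abundant genes and carry no test. With the mean of log2(FPKM + 1) of each class instead, which weights each gene equally, coactivators relative to VGLLs were higher and not lower, by 0.26 and 0.14, and coactivators relative to TEADs were higher with both siRNAs, by 0.66 and 0.52.

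**Figure D3:**
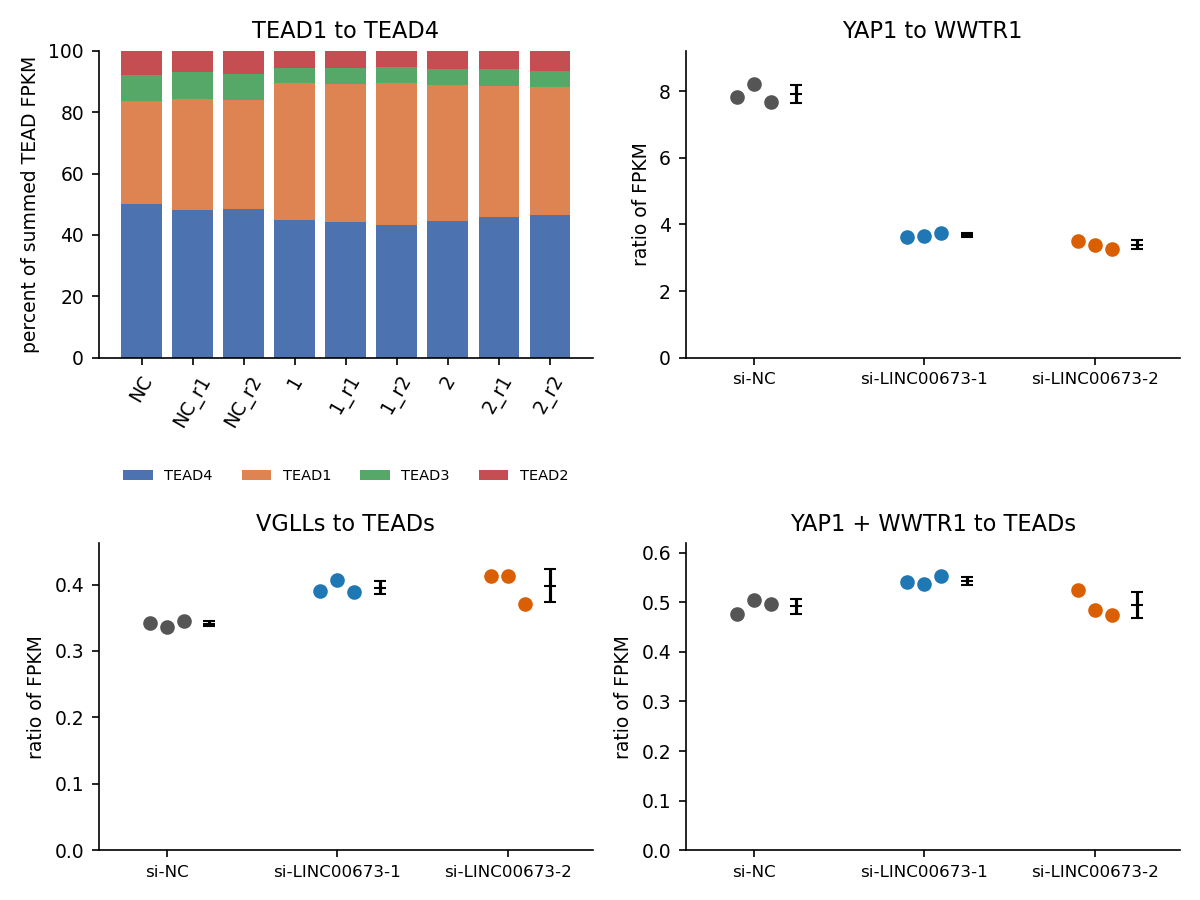
Share of TEAD1 to TEAD4 in the summed TEAD FPKM of each library (stacked bars, in percent; NC is si-NC, 1 and 2 are the siRNAs) and ratios of FPKM within each library (points, with the group mean and SD beside them) of YAP1 to WWTR1, VGLLs to TEADs and coactivators to TEADs. TEAD1 takes at most 36.3% with si-NC and at least 41.6% with the siRNAs, and the ratio of YAP1 to WWTR1 drops from at least 7.68 to at most 3.73.

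The order of levels changed accordingly, where the place of TEAD1 is less certain because most of its transcripts were predicted. With si-NC it was TEAD4, YAP1, TEAD1 and VGLL4, then TEAD3, TEAD2 and WWTR1, and of these neighbours only TEAD1 and VGLL4 overlapped. With si-LINC00673-1, TEAD1, TEAD4 and YAP1 led in that order and each overlapped the next, followed by VGLL4, WWTR1, and the overlapping TEAD2 and TEAD3. With si-LINC00673-2 it was TEAD4 and TEAD1, which overlapped, then VGLL4 and YAP1, which overlapped too, then WWTR1, TEAD2 and TEAD3. WWTR1 passed from the lowest of the 7 genes to above TEAD2 and TEAD3 in each siRNA library.

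The GC content of the transcripts differed between the members that were lower and those that were higher, with exceptions. TEAD4 (60.4%), TEAD3 (59.8%) and TEAD2 (58.4%), all lower with the siRNAs, stood at percentiles 84.9, 82.9 and 78.2 of GC among the tested genes, whereas WWTR1 (40.9%) and TEAD1 (41.3%), both higher, stood at percentiles 18.4 and 20.2. YAP1, at 43.5% GC (percentile 29.6), was lower with si-LINC00673-2, and VGLL4, at 52.1% (percentile 57.9), was higher with both siRNAs. After a correction for GC content, WWTR1 differed by 0.83 with si-LINC00673-1 and 0.88 with si-LINC00673-2, TEAD3 by -0.51 and -0.45, and TEAD1 by 0.23 and 0.24. TEAD2 then differed by -0.30 and -0.12 and was called with neither siRNA, so that 2 members were called in each comparison (WWTR1 and TEAD3). With scaled libraries, TEAD4 differed by -0.08 with si-LINC00673-2 (limma adjusted P = 0.084). The part of GC content in these differences was not tested further.

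Promoters are shown for YAP1, for WWTR1 (the downstream of its 2 starts) and for TEAD3, the last 2 being the genes whose RNAs differed most, to allow a search for the letters of the TEAD element, GGAATG on either strand. Each runs from 250 bases before to 50 after a RefSeq start on GRCh38.p14, with matches in capitals.
YAP1 chr11:102110197-102110496 (+): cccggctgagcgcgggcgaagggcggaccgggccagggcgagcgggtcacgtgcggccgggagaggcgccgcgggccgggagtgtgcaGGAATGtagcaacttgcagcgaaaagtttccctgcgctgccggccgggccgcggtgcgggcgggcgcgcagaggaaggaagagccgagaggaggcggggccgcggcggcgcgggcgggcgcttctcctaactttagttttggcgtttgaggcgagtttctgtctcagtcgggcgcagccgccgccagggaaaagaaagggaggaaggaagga
WWTR1 chr3:149657976-149658275 (-): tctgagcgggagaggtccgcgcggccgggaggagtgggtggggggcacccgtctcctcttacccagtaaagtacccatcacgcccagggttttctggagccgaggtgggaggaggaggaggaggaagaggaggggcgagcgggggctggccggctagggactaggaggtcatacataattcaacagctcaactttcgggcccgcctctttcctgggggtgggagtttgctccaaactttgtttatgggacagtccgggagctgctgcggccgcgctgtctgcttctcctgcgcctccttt
TEAD3 chr6:35497030-35497329 (-): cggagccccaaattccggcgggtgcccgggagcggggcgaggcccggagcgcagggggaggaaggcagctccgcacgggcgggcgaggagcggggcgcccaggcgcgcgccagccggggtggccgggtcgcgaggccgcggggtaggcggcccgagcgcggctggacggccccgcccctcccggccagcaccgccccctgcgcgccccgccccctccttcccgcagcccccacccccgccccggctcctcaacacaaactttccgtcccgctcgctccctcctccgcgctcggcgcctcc
The YAP1 promoter held 1 match and the others none. RefSeq starts were matched for 7 of the 9 genes, with 13 promoters, of which those of YAP1 and VGLL1 held a match. Over all 35116 promoters of this length the share was 14.0%. The GC content was 70.7% for the YAP1 promoter, 63.0% for that of WWTR1 and 81.3% for that of TEAD3. TEAD1 and TEAD4 were not matched. A match describes these letters in this window and no binding.

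Between the siRNAs, 0 of 7 members were called, against 7.64% of all tested genes. By limma, 2 of 7 (YAP1 and TEAD1) had an adjusted P of at most 0.05, where 44.0% of all tested genes had, and the same 2 had an unadjusted P under 0.05. YAP1, WWTR1 and TEAD1 were lower in all si-LINC00673-2 libraries than in all si-LINC00673-1 libraries, a separation seen in 53.7% of all tested genes. For TEAD3, TEAD4 and VGLL4 the libraries overlapped, with 95% intervals of the difference from -0.11 to 0.12, -0.07 to 0.10 and -0.10 to 0.05. With scaled libraries, TEAD2 and TEAD4 were higher with si-LINC00673-2 than with si-LINC00673-1, by 0.21 (limma adjusted P = 0.028) and 0.12 (limma adjusted P = 0.034), and WWTR1 differed by 0.02.

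Genes with the most similar course over the 9 libraries were sought by the mean absolute difference in log2(FPKM + 1) after subtraction of each gene's si-NC mean, among named genes of similar level. WWTR1 was nearest to ANKRD20A4 (0.051) and ITGA2 (0.052), where the median over its 6986 candidates was 0.64. ITGA2, an integrin subunit, had 4.83 FPKM with si-NC, 9.93 with si-LINC00673-1 and 9.02 with si-LINC00673-2. YAP1 was nearest to CNOT1 (0.017) and SCD (0.019), TEAD4 to C16orf58 (0.026) and PAFAH1B3 (0.028), and VGLL4 to C6orf106 (0.017) and SNRPD1 (0.023), with medians over their candidates of 0.18 to 0.20.

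Upstream of the coactivators, 27 of 29 listed Hippo kinases and adaptors were tested. With si-LINC00673-1, 2 were called higher and 2 lower (all tested genes 11.1% and 15.6%). With si-LINC00673-2, 2 were called higher and 4 lower (all tested genes 11.0% and 23.1%). The medians were 0.09 and -0.03 (all tested genes 0.0032 and -0.10). LATS1, the kinase that phosphorylates YAP1 and WWTR1, averaged 6.20 ± 0.137 FPKM in the controls and 7.90 ± 0.195 and 7.36 ± 0.232 after the siRNAs (SD, n = 3 each). Its log2 differences of 0.31 (limma adjusted P = 9.2e-05) and 0.22 (limma adjusted P = 7.6e-04) were below 1.3-fold and not called. LATS2 differed by 0.21 and 0.06 (0.14 for the latter with scaled libraries) and was not called either. AJUBA, a LIM protein that binds LATS kinases, fell by 0.62 and by 0.80 on the log2 scale, from 13.1 FPKM to 8.18 and 7.09. AMOT, an angiomotin that binds YAP1, rose by 0.67 and 0.45, from 2.84 FPKM to 5.12 and 4.23. With si-LINC00673-1, FRMD6 was also called higher (0.40), and with si-LINC00673-2, RASSF1 was called higher (0.67) and TAOK3 and AMOTL2 lower (-0.40 and -0.38), all named after their values were seen. TAOK3 (-0.32) and AMOTL2 (-0.31) were no longer called with scaled libraries, nor after a correction for GC content (-0.37 and -0.23), which also ended the call of FRMD6 (0.32). The list's 4 genes called lower with si-LINC00673-2 thereby became 2 and 1. TAOK2, a kinase upstream of MST1 and MST2, fell by 0.40 and by 0.67, but after a correction for GC content it was called with neither siRNA (-0.10 and -0.33).

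Downstream, 16 of 22 listed target genes of YAP1 and WWTR1 were tested, and the best known ones were barely expressed. CTGF did not exceed 1.25 FPKM, CYR61 0.74 and ANKRD1 0.10 in any library, and none passed the filter. Every knockdown library held less CTGF (0.59 to 0.73 FPKM for si-LINC00673-1, 0.51 to 0.81 for si-LINC00673-2) than any control library (0.92 or more). CYR61 lay above its control range (0.54 to 0.59 FPKM) for si-LINC00673-1 (0.61 to 0.68). For si-LINC00673-2 it overlapped that range (0.54 to 0.74), and ANKRD1 overlapped its controls for both siRNAs. None of these differences was tested. With si-LINC00673-1, 7 targets were called higher and 0 lower (all tested genes 11.1% and 15.6%). With si-LINC00673-2, 4 were called higher and 2 lower (all tested genes 11.0% and 23.1%). The medians were 0.28 and 0.19 (all tested genes 0.0032 and -0.10). After a correction for GC content the counts called were 7 higher and 0 lower with each siRNA, and with scaled libraries 8 higher and 1 lower with si-LINC00673-2. By a limma adjusted P of at most 0.05 without a fold limit, 9 targets were higher and 4 lower with si-LINC00673-1. With si-LINC00673-2 they were 8 and 6. Such values were held by 64.4% and 70.8% of all tested genes. NUAK2, a kinase, rose by 0.73 and 0.81, from 4.94 ± 0.376 FPKM (SD, n = 3) to 8.86 ± 0.272 and 9.42 ± 0.430. DOCK5, a guanine nucleotide exchange factor, rose by 0.71 and 0.70, and CCDC80, a secreted protein, by 0.49 and 0.75 from a si-NC mean of 0.83 FPKM. The 2 targets called lower with si-LINC00673-2 were FJX1 (-0.78) and AMOTL2 (-0.38), and the fourth called higher was GADD45A (0.81), named after their values were seen. AMOTL2, LATS2 and PTPN14 are in the list of adaptors too. The list was compiled from general knowledge and includes genes that other pathways also control.

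Of 30 listed partners of YAP1, WWTR1 and TEADs on chromatin, 27 were tested. With si-LINC00673-1, 6 were called higher and 1 lower (all tested genes 11.1% and 15.6%). With si-LINC00673-2, 9 were called higher and 2 lower (all tested genes 11.0% and 23.1%). The medians were 0.19 and 0.11 (all tested genes 0.0032 and -0.10). Of the genes called the same way with both siRNAs, those with the largest mean difference were AP-1 factors, which bind many enhancers together with TEADs. JUN rose by 1.0 and 2.02, from 59.5 ± 2.84 FPKM (SD, n = 3) to 120 ± 10.7 and 245 ± 19.5. FOSL2 rose by 0.54 and 1.0, and FOSL1 by 0.59 and 0.80. CTBP1, a corepressor, was the gene called lower with both siRNAs (-0.40 and -0.46), and RUNX3 was called lower with si-LINC00673-2 (-0.39), both named after their values were seen. After a correction for GC content CTBP1 (-0.20 with each siRNA) and RUNX3 (-0.23) were not called, and with scaled libraries CTBP1 (-0.35) and RUNX3 (-0.29) were not called with si-LINC00673-2, which left 0 of the list lower with that siRNA.

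**Figure D4:**
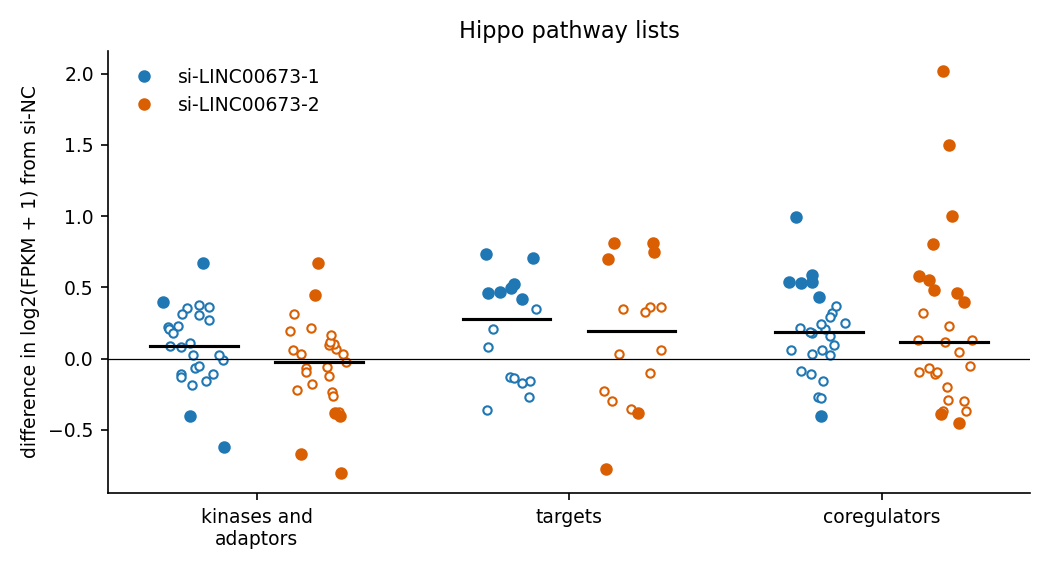
Difference in log2(FPKM + 1) from si-NC for each tested gene of the lists of Hippo kinases and adaptors (27), YAP1 and WWTR1 targets (16) and coregulators (27), with filled points for genes called and open points for the others, and lines for the medians. The 7 filled points of the targets with si-LINC00673-1 are all above 0, and JUN is the highest point at 2.02.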

How the data were processed

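Expression values are the authors' deposited FPKM (fragments per kilobase of transcript and M mapped fragments, with 2 decimals) of 9 libraries. The submitters' processing notes name Bowtie2 and GRCh37.p13, and the counting tool is not given in the sources used here. The deposited log2 ratios between groups, with p-values and q-values, were not used, and 4 lines without values were left out. FPKM are not counts, and the depth given comes from steps among low values of 206 to 220 genes of 300 to 900 bases per library.

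Groups follow the labels. All 9 libraries entered 1 fit with limma 3.58.1 (lmFit, eBayes with a trend) in R 4.3.3 on log2(FPKM + 1) of genes averaging 1 FPKM or more, tested on simulated data. Adding 1 understates the change of low genes. The call limits follow the study. GC content came from the longest GENCODE release 29 transcript (GRCh38), matched for 11380 tested genes, and a lowess curve on GC was subtracted from each library.

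The members and lists were chosen with earlier results of these data known. By rule, those named are all members, from each list at most the 3 genes with the largest mean difference among those called the same way with both siRNAs, CTGF, CYR61, ANKRD1, LATS1 and LATS2, and the 2 nearest genes of 4 members. Other genes of these lists were named after their values were seen. Scaled libraries were brought to the same median ratio over expressed genes. Alternatives were the added value, filters, limits, the libraries in the fit, scaling, the GC correction, a replicate block and each library left out.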

Additional observations from a re-analysis of the deposited data

Results flagged for a closer look

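YAP1 differed between the siRNAs, with a log2 difference of -0.19 (si-LINC00673-2 minus si-LINC00673-1, standard error 0.043, limma adjusted P = 0.0057) and lower values in 3 of 3 si-LINC00673-2 libraries. TEAD1 differed likewise, by -0.11 (standard error 0.038, limma adjusted P = 0.035), also lower in 3 of 3 libraries. Both were flagged because the siRNAs are meant to have the same target and the contrast between them was tested directly. A limma adjusted P of at most 0.05 in this contrast was found for 44.0% of all tested genes. Of all tested genes, 35.2% differed by more than YAP1 and 58.8% by more than TEAD1. With libraries scaled to the same median ratio the differences were -0.09 for YAP1 (limma adjusted P = 0.13) and -0.0080 for TEAD1 (limma adjusted P = 0.88). After the correction for GC content they were -0.08 (limma adjusted P = 0.0497) and 0.01 (limma adjusted P = 0.71). With single libraries left out, the limma adjusted P of YAP1 ranged from 0.0019 to 0.025. That of TEAD1 ranged from 0.021 to 0.12 and was above 0.05 in 6 of 9 cases, without any single si-LINC00673-1 library, r1 or r2 of si-LINC00673-2, or r2 of si-NC.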

How the results depend on the processing

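Of the alternative values for single members, 335 kept their side of the call limits, with their direction where called, and 1 did not: TEAD2 with si-LINC00673-1 was -0.30 after the correction for GC content and below 1.3-fold. TEAD4 was never called, but its sign with si-LINC00673-2 turned from -0.19 to 0.07 under that correction. Leaving out any 1 library, the members called stayed at 3, 2 and 0, for si-LINC00673-1 and si-LINC00673-2 against si-NC and between the siRNAs, and the log2 ratio of YAP1 to WWTR1 against si-NC ranged from -1.13 to -1.08 and from -1.25 to -1.19.

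Of all tested genes, 3436, 4385 and 984 were called in these comparisons. The counts were 1573, 2270 and 224 at a fold change of at least 1.5, 2211, 2714 and 547 at a mean of at least 5 FPKM, 1656 between the siRNAs with 0.1 FPKM added, and 575 between the siRNAs after the correction for GC content, which had fewer genes to test. The share called higher with si-LINC00673-2 was 32.2% as deposited, 46.9% after median-ratio scaling and 51.3% after the GC correction, and between the siRNAs 28.7%, 62.1% and 57.4%. With the mean of log2(FPKM + 1) of a class in place of summed FPKM, coactivators to VGLLs turned from -0.07 and -0.22 to 0.26 and 0.14, because WWTR1 then weighs as much as YAP1. Coactivators to TEADs were 0.66 and 0.52 (from 0.14 and 0.0053), VGLLs to TEADs 0.41 and 0.37 (from 0.21 and 0.22), and YAP1 to WWTR1 -0.99 and -1.10 (from -1.11 and -1.22).

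With the replicate label as a block, 3449, 4400 and 988 genes and 3, 2 and 0 members were called, and TEAD1 between the siRNAs had a limma adjusted P = 0.073. Deviations of same-labelled libraries correlated with r of -0.24 to 0.10, so the labels were not taken to pair the libraries. Scaling and the GC correction for the 3 gene lists were chosen after seeing the data, and each list's total of called genes stayed within 1.5 times of its value as deposited. The split by direction with si-LINC00673-2 did not: targets went from 4 higher and 2 lower to 8 and 1 with scaling and 7 and 0 with the GC correction, kinases and adaptors from 2 and 4 to 3 and 2 and 3 and 1, and coregulators from 9 and 2 to 10 and 0 and 11 and 0. The FPKM of VGLL3 are too low to show a difference at this depth.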
